A study of Rattus norvegicus with 50 samples.

Results

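The genes described are 38 that cells use to copy their DNA and to divide, listed by name, and their levels were compared between peripheral blood mononuclear cells (PBMC) and the hippocampus of rats. A transcript cluster, the group of array probes that stands for a gene, carried the symbol of 34 of the 38 genes among 15049 clusters with a single gene symbol, and each of the 34 had 1 cluster. *Mcm5*, *Bub1b*, *Top2a* and *Cenpe* had no cluster with their symbol in the annotation used here and were not analysed. Male Wistar rats were studied in 3 groups at an age of 3.5 months. MONW-Lep rats were given recombinant murine leptin in Captisol by mouth on lactation days 1 to 20, at 5 times the daily amount taken with milk, and were later fed a diet in which fat gave 60% of the calories. MONW rats (metabolically obese, normal-weight) were given Captisol alone and later the same 60% fat diet, and NW rats (normal-weight) were given Captisol and a diet in which fat gave 10% of the calories. Both high-fat groups were fed isocalorically to NW rats for 11 weeks, the animals came from 8 litters, and 9 MONW-Lep, 8 MONW and 8 NW arrays were analysed in each tissue. According to the paper, both tissues came from the same animal cohort. The labels do not say which arrays share a rat, so the tissues were compared unpaired. PBMC were separated from blood of the saphenous vein on a density gradient, and the hippocampus was taken whole, so both are mixtures of cell types.

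Before a cell divides, it loads ring-shaped Mcm helicases onto its replication origins, opens the DNA with them, and copies it with polymerases held in place by the sliding clamp encoded by *Pcna*. Genes for these steps are switched on late in G1 by transcription factors of the E2F family, whereas genes for mitosis are switched on in G2 through promoters that often carry a CHR element (cell cycle genes homology region) and CCAAT boxes. Most circulating mononuclear cells are resting lymphocytes and monocytes, among which a small share is in cycle. Most cells of the adult hippocampus are neurons and glia, and dividing cells are few, mainly neural progenitors of the dentate gyrus and oligodendrocyte precursors.

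Promoter stretches are shown for the helicase genes and *Tyms*, which had the largest differences between the tissues in either direction, and for 3 mitotic genes beside them. RefSeq promoter sequence of the rat build GRCr8, from 250 bases before to 50 bases after the start, was matched for 28 of the 38 genes, and no entry was used for *Mcm4*, *Cdc6*, *Rrm2*, *Ccne2*, *E2f1*, *Ccna2*, *Aurkb*, *Foxm1*, *Ube2c* and *Tpx2*. An E2F match was TTTCGCGC or TTTGGCGC, a CHR match TTTGAA and a CCAAT box CCAAT, each on either strand. Capitals mark the matches, in reverse complement where the motif lies on the other strand. Each stretch holds the 150 bases before the start, except for *Mcm3*, whose 30 bases run from position 3 to position 32 after it.
Mcm2 (chr4:122918095-122918244, minus strand): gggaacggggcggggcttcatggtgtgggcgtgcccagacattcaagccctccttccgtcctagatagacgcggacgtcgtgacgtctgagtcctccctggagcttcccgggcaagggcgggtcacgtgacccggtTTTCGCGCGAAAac
Mcm3 (chr9:30733715-30733744, minus strand): acttgggaagtTTTCGCGCcagggaggagt
Mcm6 (chr13:42404353-42404502, minus strand): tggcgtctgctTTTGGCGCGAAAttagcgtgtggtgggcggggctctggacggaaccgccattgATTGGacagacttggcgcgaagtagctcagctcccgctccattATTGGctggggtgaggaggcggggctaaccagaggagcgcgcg
Mcm7 (chr12:22163179-22163328, minus strand): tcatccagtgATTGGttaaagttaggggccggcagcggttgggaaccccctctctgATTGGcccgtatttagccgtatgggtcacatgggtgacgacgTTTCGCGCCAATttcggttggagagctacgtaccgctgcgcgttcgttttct
Tyms (chr9:120776084-120776233, minus strand): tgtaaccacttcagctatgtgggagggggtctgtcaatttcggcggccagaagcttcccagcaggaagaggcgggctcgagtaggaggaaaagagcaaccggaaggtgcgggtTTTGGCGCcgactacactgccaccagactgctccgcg
Cdk1 (chr20:19265143-19265292, plus strand): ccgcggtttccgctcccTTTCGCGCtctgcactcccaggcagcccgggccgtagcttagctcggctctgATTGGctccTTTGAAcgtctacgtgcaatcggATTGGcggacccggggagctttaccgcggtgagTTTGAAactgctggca
Ccnb2 (chr8:79981659-79981808, minus strand): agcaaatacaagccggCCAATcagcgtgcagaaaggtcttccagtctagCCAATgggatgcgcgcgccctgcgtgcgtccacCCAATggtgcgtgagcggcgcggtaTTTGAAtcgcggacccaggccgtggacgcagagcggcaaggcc
Mki67 (chr1:199952594-199952743, minus strand): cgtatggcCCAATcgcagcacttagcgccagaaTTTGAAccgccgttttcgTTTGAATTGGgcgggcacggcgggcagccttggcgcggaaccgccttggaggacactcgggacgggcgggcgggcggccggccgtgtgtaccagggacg

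In *Mcm2* and *Mcm6* an E2F match on each strand overlaps the other, in *Mcm7* the E2F match runs into a CCAAT box, and in *Mki67* the CHR match nearer to the start shares letters with a CCAAT box on the other strand. An E2F match lay in the window of 5 of the 7 helicase and licensing genes with an entry (*Mcm2*, *Mcm3*, *Mcm5*, *Mcm6* and *Mcm7*), in *Tyms* and in *Cdk1*, against 0.792% of 33465 rat promoters of the same 300 bases. CHR matches lay in 9 of 15 genes of the mitotic groups, against 18.3% of all promoters, and CCAAT boxes in 12 of 15, against 37.5%. CCAAT boxes lay in 6 of the 7 helicase and licensing genes too, and a CHR match in 1 of the 7. These matches describe the letters only.

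The arrays' values are log2 levels. Array medians lay between 6.66 and 6.75 in PBMC and between 6.87 and 6.90 in the hippocampus. The mean level of 7 T cell markers lay between 9.84 and 10.31 on PBMC arrays and between 4.86 and 5.42 on hippocampus arrays, and that of 6 neuron markers between 5.94 and 6.75 in PBMC and between 11.62 and 12.06 in the hippocampus. The hippocampus array of MONW replicate 7 stood apart, with a mean of 9.46 over 6 striatum markers against 6.86 to 7.10 on the other MONW arrays. PBMC arrays ranged widely in 4 platelet markers, with means of 7.43 to 10.77 in MONW-Lep, 8.00 to 11.01 in MONW and 7.90 to 10.97 in NW rats. Most of the genes gave low signals: on no array of a group did 30 of the 34 in PBMC, and 32 of the 34 in the hippocampus, exceed the 95th percentile of the 1153 negative control probe sets of that array. The exceptions were *Pcna* and *Rrm1* in both tissues and *Mcm3* and *Mcm7* in PBMC. In NW rats, 13 of the 34 in PBMC and 17 in the hippocampus exceeded the median of those control sets on every array. These counts were not taken over all genes. The array medians given above also lay below the 95th percentiles, which averaged 9.10 in NW PBMC and 8.34 in NW hippocampus. Falling below that percentile was therefore not particular to these genes.

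The first comparison set blood cells against hippocampus in NW rats, 8 arrays each. Most of the genes were higher in PBMC, with the largest differences in signal for 4 of the 5 measured helicase subunits and *Pcna*: *Mcm3* by a log2 difference of 4.10, *Mcm6* by 2.60, *Mcm7* by 2.39, *Mcm2* by 1.96 and *Pcna* by 1.90. The hippocampal signals of *Mcm3* and *Mcm6* were at the level of negative control sets, so the order of these differences is one of signals. At a Benjamini-Hochberg adjusted p under 0.05 in limma, 27 of the 34 were higher in PBMC, where 38.4% of all 15049 genes were (72.1% in either direction), and 3 (*Tyms*, *Ccne1* and *Ccne2*) were lower, where 33.7% were. With a log2 difference of at least 1 as well, 7 were higher, against 12% of all genes, and 1 was lower, against 17.1%. The median difference of the 34 was 0.50 and that of all genes 0.08, and with each array centred on its median they were 0.74 and 0.32. By role, the medians were 1.30 for 8 helicase and licensing genes, 1.10 for 5 clamp and nucleotide genes, close to 0 for 4 G1/S genes, 0.46 for 8 mitotic cyclins and kinases, 0.34 for 3 checkpoint genes and 0.24 for 6 chromosome and spindle genes. In bulk samples, a smaller share of cycling cells and less of these RNAs per cell cannot be told apart.

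**Figure D1:**
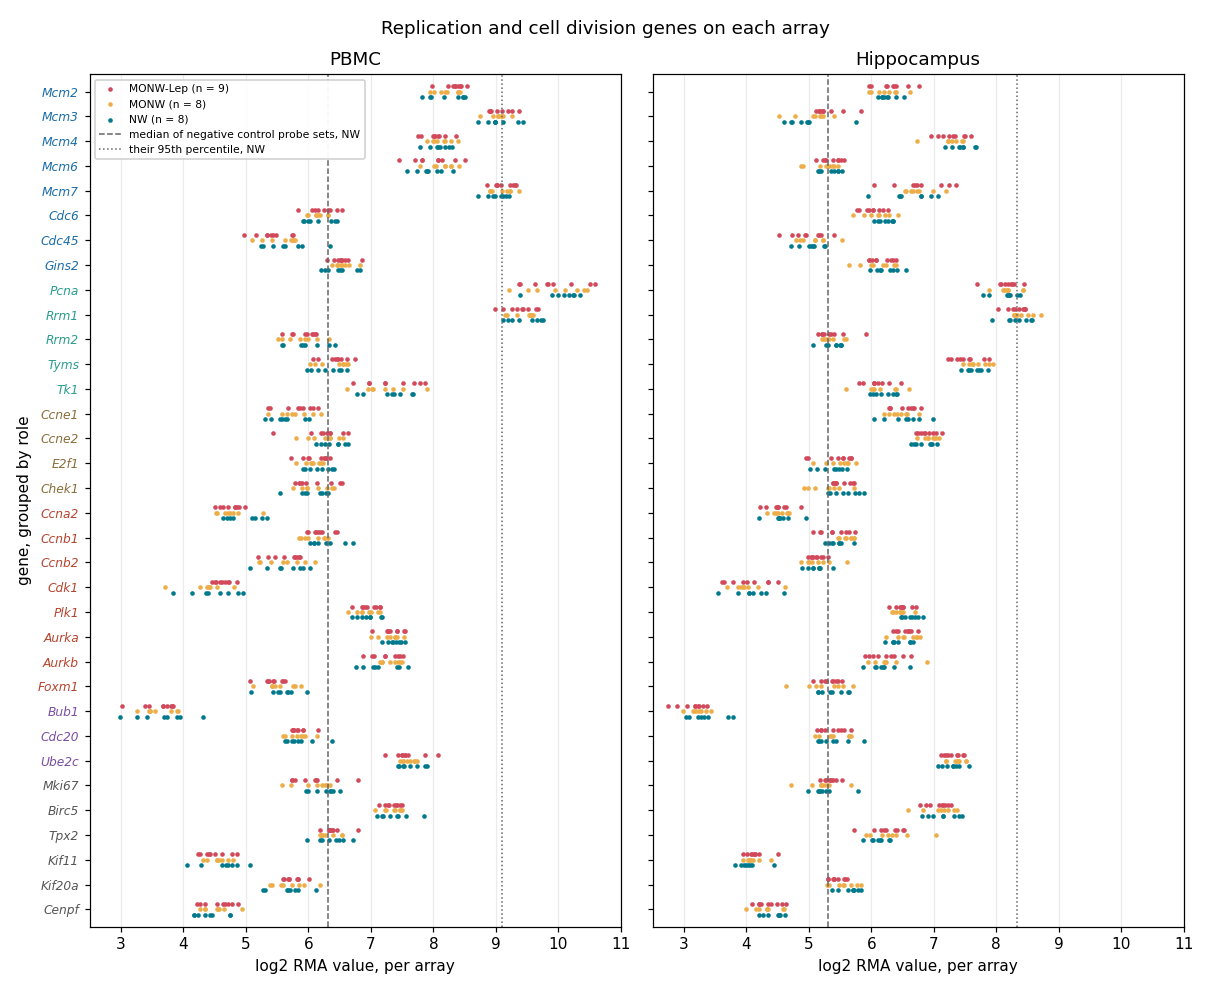
Log2 RMA level (x axis) of each of the 34 genes (y axis, grouped by role) on each array of PBMC and hippocampus, with 1 point per array for MONW-Lep (n = 9), MONW (n = 8) and NW (n = 8). Vertical lines give the median and the 95th percentile of the negative control probe sets in NW arrays. The points of *Mcm3* lie between 8.71 and 9.44 in PBMC and between 4.52 and 5.83 in the hippocampus, and most other genes lie left of the dotted line in both tissues.

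*Mcm2* to *Mcm7* encode subunits of the replicative helicase. *Mcm3* ranged from 8.71 to 9.44 (median 8.99) in PBMC of NW rats, against 4.61 to 5.75 (median 4.92) in their hippocampus. The PBMC mean of 9.06 ± 0.24 stood above the hippocampal mean of 4.96 ± 0.35 (SD, n = 8 each) by 4.10 on the log2 scale (standard error 0.12), a fold change of 17.1 between the signals, and no array of a tissue reached the range of the other. In the hippocampus the *Mcm3* signal exceeded the median of the negative control sets (5.31) on 1 of 8 arrays. The 23 antigenomic background sets, a further kind of control, had a median of 4.27 there and reached 7.94. This fold is therefore not to be taken as a ratio of 2 measured transcript levels. *Mcm6* ranged from 7.58 to 8.32 (median 7.91) in PBMC and from 5.15 to 5.53 (median 5.39) in the hippocampus, a fold change of 6.06 between the signals. The tissues did not overlap, and the hippocampal signal exceeded the negative control median on 4 of 8 arrays. *Mcm7* ranged from 8.71 to 9.21 (median 9.04) in PBMC and from 5.94 to 7.07 (median 6.63) in the hippocampus, a fold change of 5.26. *Mcm2* ranged from 7.82 to 8.50 (median 8.29) in PBMC and from 6.10 to 6.53 (median 6.23) in the hippocampus, a fold change of 3.88. The 4 genes had exact permutation p values of 0.000155, two-sided, the smallest that 12870 regroupings of 8 against 8 arrays allow. All 4 carry an E2F match in the sequences shown above. *Pcna*, *Rrm1* and *Tk1*, also higher in PBMC and not shown there, had a promoter entry without one. *Mcm4*, of the same ring, differed less, with 7.79 to 8.29 (median 8.09) in PBMC and 7.18 to 7.67 (median 7.44) in the hippocampus (log2 difference 0.64, standard error 0.09; adjusted p = 3.29e-08 in limma).

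The genes that load and start the helicase had smaller differences. *Cdc45*, which joins the Mcm ring in the active helicase, was higher in PBMC by 0.63 (95% confidence interval 0.37 to 0.89), with 5.24 to 6.35 in PBMC and 4.72 to 5.26 in the hippocampus, ranges that met at their ends. *Gins2*, of the complex that binds with it, was higher by 0.24 (0.04 to 0.43). *Cdc6*, which loads the ring, showed no call: its difference was -0.07 (95% confidence interval -0.25 to 0.12), with 5.91 to 6.46 in PBMC and 6.04 to 6.34 in the hippocampus.

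Of the genes for the clamp and for deoxynucleotide supply, 4 were higher in PBMC and 1 was lower, and none of the 5 overlapped between the tissues in NW rats. In all, 14 of the 34 genes lay wholly higher in PBMC, against 21.7% of all genes, and 2 wholly lower, against 24.7%. *Pcna* ranged from 9.38 to 10.35 (median 10.13) in PBMC and from 7.79 to 8.38 (median 8.20) in the hippocampus. Its fold change was 3.73. *Rrm1*, the large subunit of ribonucleotide reductase, ranged from 9.11 to 9.75 (median 9.47) in PBMC and from 7.93 to 8.57 (median 8.33) in the hippocampus (fold change 2.19). *Rrm2*, the small subunit that cells make in S phase, was higher by 0.59 (0.37 to 0.82). *Tk1*, thymidine kinase of dividing cells, ranged from 6.78 to 7.67 in PBMC and from 5.98 to 6.41 in the hippocampus (fold change 2.14). *Tyms*, which makes thymidylate, went the other way: it ranged from 5.97 to 6.62 (median 6.33) in PBMC and from 7.43 to 7.87 (median 7.64) in the hippocampus, a log2 difference of -1.34 (standard error 0.10) and a fold change of -2.53. *Tyms* carries an E2F match like the *Mcm* genes, and over the 6 measured genes with such a match the differences ran from -1.34 to 4.10 (median 2.18), against -0.89 to 1.90 (median 0.50) over the 18 measured genes with a promoter entry and none. *Mcm2*, *Mcm3*, *Mcm6* and *Mcm7*, already described for their large differences, are among those 6. The medians with and without a CHR match were 0.43 and 0.73, and with and without a CCAAT box 0.59 and 0.46. The part of any motif in the differences was not tested.

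The G1/S genes were split, with 2 higher and 2 lower in PBMC. *E2f1*, an E2F factor itself, ranged from 5.91 to 6.41 in PBMC and from 5.02 to 5.61 in the hippocampus (log2 difference 0.81, standard error 0.11). *Chek1*, the kinase that halts the cycle when replication is disturbed, was higher in PBMC by 0.46 (standard error 0.12), with overlapping ranges. The E-type cyclins, which drive entry into S phase, were both lower in PBMC. *Ccne1* ranged from 5.31 to 6.01 (median 5.60) in PBMC and from 6.04 to 6.98 (median 6.57) in the hippocampus, without overlap (log2 difference -0.89, standard error 0.12). *Ccne2* ranged from 6.12 to 6.63 (median 6.40) in PBMC and from 6.63 to 7.05 (median 6.87) in the hippocampus, where the highest PBMC array met the lowest hippocampal array (log2 difference -0.46, standard error 0.11). With each array centred on its median the *Ccne2* difference was -0.22 and was not called.

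Of the 8 mitotic cyclins and kinases, 7 were higher in PBMC and each by less than 1 on the log2 scale. *Aurkb*, the kinase of the chromosomal passenger complex, differed by 0.97, *Aurka*, which acts at spindle poles, by 0.93, and *Ccnb1*, the main partner of Cdk1 at mitotic entry, by 0.84. The ranges did not overlap for these 3 genes. *Ccnb1* ranged from 6.03 to 6.72 (median 6.22) in PBMC and from 5.26 to 5.72 (median 5.44) in the hippocampus. Smaller differences were called for *Ccnb2* (0.52), *Ccna2* (0.40), *Cdk1* (0.39) and *Plk1* (0.32), a kinase of mitotic entry and spindle assembly, all with overlapping ranges. The identifier of the *Ccnb2* cluster carries chromosome 1, whereas the promoter entry of *Ccnb2* lies on chromosome 8. For every other measured gene with a promoter entry the chromosomes were the same. The values given here for *Ccnb2* may therefore come from another locus. With quantile normalisation repeated over all arrays, the *Cdk1* difference was 0.29 and was not called. *Foxm1*, the transcription factor of the mitotic genes, had a difference of 0.20 (95% confidence interval -0.03 to 0.43) and was not called.

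All 3 checkpoint genes were higher in PBMC by less than 0.5: *Cdc20*, the activator of the anaphase-promoting complex, by 0.48, *Ube2c*, its ubiquitin-conjugating enzyme, by 0.34, and *Bub1*, a kinase of the spindle checkpoint, by 0.31. Of the chromosome and spindle genes, *Mki67*, the gene of the proliferation marker Ki-67, was higher by 0.99 (standard error 0.12), with 5.96 to 6.50 (median 6.31) in PBMC and 4.99 to 5.78 (median 5.20) in the hippocampus and no overlap. The negative control medians, 6.32 in PBMC and 5.31 in the hippocampus of NW rats, lay within these ranges. *Kif11*, the motor that separates spindle poles, was higher by 0.59, *Tpx2*, a spindle assembly factor, by 0.25 and *Birc5*, survivin, by 0.23. *Kif20a*, a motor of cytokinesis (difference 0.02), and *Cenpf*, a kinetochore protein (-0.03), were not called. The exact permutation test gave p = 0.105 for *Bub1* and 0.0775 for *Birc5*, and 28 of the 34 genes passed 0.05 by it. It was not run over all genes, of which 72.1% were called by limma in either direction. The *Bub1* call was lost with quantile normalisation repeated (0.17), and those of *Bub1* (0.24), *Birc5* (0.23) and *Tpx2* (0.24) with arrays weighted by quality. Leaving out a single NW array ended the call of *Tpx2* in 9 of 16 cases (0.20 to 0.25), of *Birc5* in 7 (0.16 to 0.22), of *Bub1* in 6 (0.21 to 0.29) and of *Gins2* in 4 (0.19 to 0.21), and of no other gene.

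**Figure D2:**
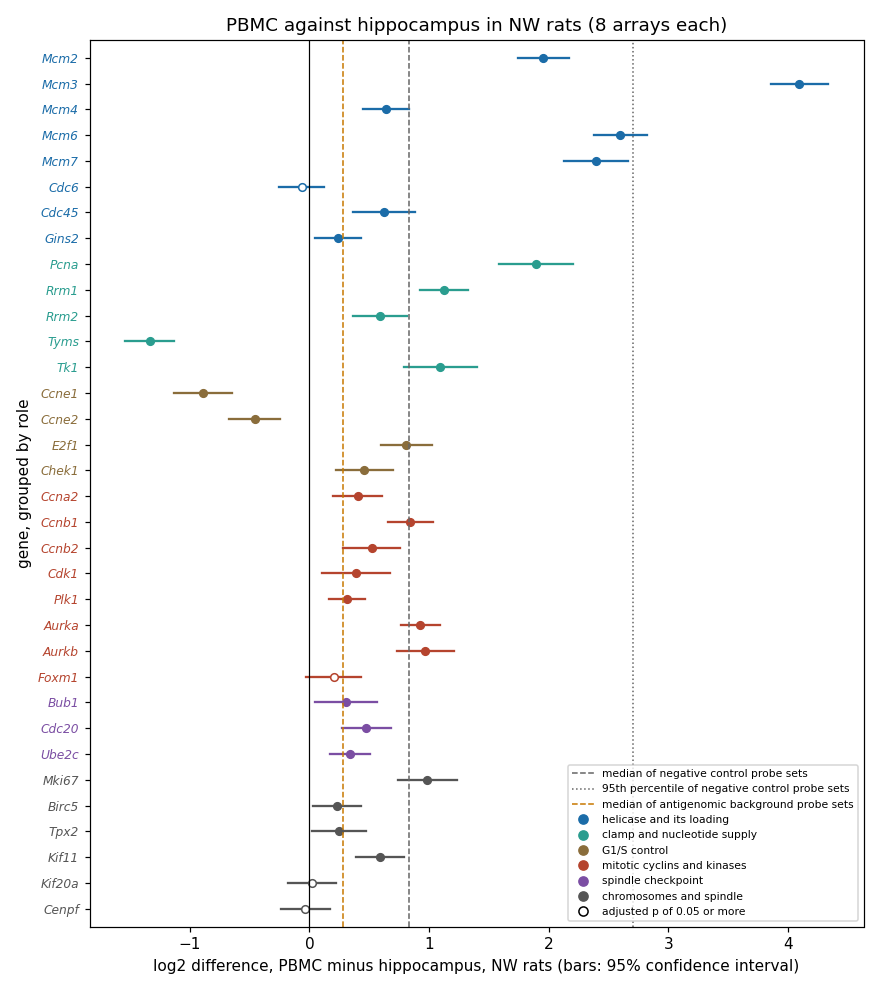
Log2 difference, PBMC minus hippocampus, in NW rats (8 arrays each) for the 34 genes, with the 95% confidence interval from limma, coloured by role, and open points have an adjusted p of 0.05 or more. Dashed and dotted lines give the differences of control probe sets, and *Mcm3* at 4.10 lies beyond the 95th percentile of the negative controls, 2.70.

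Control probe sets moved in the same direction between the tissues. The 1153 negative control sets had a median difference of 0.83 (95th percentile 2.70) and the 23 antigenomic background sets one of 0.28 (0.10 to 0.55). Of the 34 genes, 11 exceeded the median of the negative controls, as 14.6% of all genes did, and 1, *Mcm3*, exceeded their 95th percentile, as 2.83% did. 16 of the 27 genes called higher did not exceed the median of the negative controls, among them *Ccnb2*, *Cdk1*, *Plk1* and *E2f1*. The highest antigenomic set was exceeded by 16 of the 34, a count not taken over all genes. Some genes called higher had mean levels in NW PBMC below the negative control median of 6.32. The lowest were *Bub1* (3.66), *Cdk1* (4.48), *Kif11* (4.63), *Ccna2* (4.97), *Ccnb2* (5.63) and *Cdc45* (5.66). The others were *Cdc20* (5.87), *Rrm2* (5.98), *Chek1* (6.04), *E2f1* (6.17), *Mki67* (6.25) and *Ccnb1* (6.29). Their calls rest on PBMC signals with means below the negative control median. Antigenomic sets had levels of 1.98 to 8.30 in NW PBMC (median 4.55), a range that holds these means. The part of the background signal in the smaller differences was not tested. Cell type markers differed as well in NW rats, with mean levels of 9.84 to 10.15 in PBMC and 4.87 to 5.38 in the hippocampus for 7 T cell genes, 6.87 to 7.80 in PBMC and 5.70 to 5.96 in the hippocampus for 8 erythroid genes, 7.66 to 7.90 in PBMC and 7.14 to 7.58 in the hippocampus for 5 plasmablast genes, and 5.74 to 6.25 in PBMC and 6.62 to 7.03 in the hippocampus for 5 genes of blood progenitors. For 8 genes of newborn neurons they were 5.96 to 6.34 in PBMC and 7.59 to 8.02 in the hippocampus. The part of any of these cell types in the differences was not tested.

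The other 2 groups gave the tissue difference between means of their own arrays. The calls of all groups came from the same fit of all arrays, with a shared estimate of each gene's spread. The MONW-Lep and MONW calls are therefore not independent of the NW calls. In MONW-Lep rats 28 genes were higher in PBMC (41% of all genes) and 3 lower (33.7%, and 74.6% in either direction). In MONW rats 27 were higher (39.4%) and 3 lower (33.4%, and 72.8% in either direction), the 3 lower genes being *Tyms*, *Ccne1* and *Ccne2* in each. Without overlap between the tissues, 15 genes were higher (22.4% of all genes) and 3 lower (25%) in MONW-Lep rats, and 13 were higher (22.1%) and 3 lower (24.3%) in MONW rats. *Mcm3* differed by 3.75 in MONW-Lep, 3.98 in MONW and 4.10 in NW rats, and *Mcm6* by 2.63, 2.93 and 2.60 in the same order. *Tyms* differed by -1.08 in MONW-Lep, -1.31 in MONW and -1.34 in NW rats. *Tpx2* was not called in either high-fat group, with differences of 0.15 in MONW-Lep and -0.01 in MONW rats, and *Cenpf* was not called in any group.

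Other genes of the cycle, from lists that hold none of the 38, were set beside them in NW rats. Of 84 measured genes, 62 were higher and 10 lower in PBMC, with a median difference of 0.55, where 38.4% of all genes were higher and 33.7% lower and the negative control sets had a median of 0.83. Of 28 further origin and fork genes 23 were higher and 3 (*Dut*, *Orc4* and *Orc5*) lower, and the smallest p values were those of *Dbf4*, the activator of the Cdc7 kinase (3.15), *Rpa2*, of the single-strand binding protein (1.49), *Pole*, a replicative polymerase (1.36), and *Rfc4*, of the clamp loader (1.48). Of 36 further mitotic genes 27 were higher and 2 (*Smc2* and *Ttk*) lower, and the smallest p values were those of *Tacc3* (2.74), *Cdc25b* (2.55), *Smc4* (3.13) and *Dlgap5* (2.14). Of 11 inhibitor and pocket protein genes 7 were higher, among them *Btg1*, an antiproliferative gene (3.80), *Cdkn1b*, which encodes p27 (2.09), *Rbl1* (2.51) and *Rbl2* (1.80), while *Cdkn1c* was lower (-0.62) and 3 were not called. Of 9 G1 cyclin and kinase genes 5 were higher, among them *Myc* (3.79), *Cdk2* (2.19), *Cdk6* (2.19) and *Ccnd3* (1.40), and 4 lower, of which *Ccnd1* differed most (-1.05).

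The second question was whether the high-fat diet moved these genes in the hippocampus. Unadjusted limma p values under 0.05 in MONW against NW rats were found for 3 of the 34, all lower in MONW. Of all genes 3.08% passed, 1.63% higher and 1.45% lower. None passed an adjusted p under 0.05 (0 of 34 in each of the 6 comparisons within a tissue, smallest adjusted p 0.981), and the largest difference of any of the genes in those 6 was 0.36. *Chek1* ranged from 4.92 to 5.72 (median 5.32) in MONW and from 5.31 to 5.89 (median 5.58) in NW rats, and 3 of 8 MONW arrays lay below every NW array (log2 difference -0.30, standard error 0.10; fold change -1.23; exact permutation p = 0.0277). *Plk1* ranged from 6.33 to 6.70 (median 6.46) in MONW and from 6.47 to 6.82 (median 6.63) in NW rats, with 5 of 8 MONW arrays below every NW array (-0.17, standard error 0.07; exact permutation p = 0.0177). Both stayed past the threshold without any single array. *Mcm4* ranged from 6.73 to 7.46 (median 7.26) in MONW and from 7.18 to 7.67 (median 7.44) in NW rats (-0.20, standard error 0.10; exact permutation p = 0.0505). Its lowest array was MONW replicate 7, the one with striatum markers, and without it the difference was -0.13 and the call was lost. The call was lost without each of 10 other arrays too (MONW replicates 2, 3, 4 and 6 and NW replicates 1, 2, 3, 4, 6 and 7), at -0.21 to -0.17. *Ccnb1* had a difference of 0.17 that missed the limma threshold (p = 0.0529; exact permutation p = 0.0174). Among the genes not called, *Tpx2* had the largest difference, 0.22, which was 0.12 without MONW replicate 7. The 95% confidence intervals of the 34 reached from 0.13 to 0.33 to either side. Without MONW replicate 7, 2 genes were called, *Chek1* (-0.36) and *Plk1* (-0.17).

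In MONW-Lep against NW hippocampus 5 of the 34 passed, 1 higher and 4 lower, where 2.34% of all genes passed (0.957% higher and 1.38% lower). *Mcm3* ranged from 5.12 to 5.83 (median 5.22) in MONW-Lep and from 4.61 to 5.75 (median 4.92) in NW rats (log2 difference 0.36, standard error 0.13; exact permutation p = 0.0253). All MONW-Lep arrays and a single NW array, replicate 5 at 5.75, lay above 5.01. *Cdc6* ranged from 5.77 to 6.26 (median 6.02) in MONW-Lep and from 6.04 to 6.34 (median 6.24) in NW rats, with 6 of 9 MONW-Lep arrays below every NW array (-0.21, standard error 0.08; exact permutation p = 0.00876). *Kif20a* ranged from 5.30 to 5.61 (median 5.41) in MONW-Lep and from 5.37 to 5.83 (median 5.71) in NW rats (-0.20, standard error 0.08; exact permutation p = 0.0103). These 3 calls held without any single array. *Plk1* was lower by 0.13 (exact permutation p = 0.0467), a call lost without each of 12 of the 17 arrays (MONW-Lep replicates 1, 2, 3, 4, 5, 7 and 8 and NW replicates 1, 5, 6, 7 and 8), at -0.13 to -0.10. *Bub1* was lower by 0.22 (exact permutation p = 0.0777), a call lost without MONW-Lep replicates 1, 4 or 10 or NW replicates 4 or 6, at -0.21 to -0.16. The *Bub1* signal lay below the negative control median on every hippocampus array of both groups, so this call compares signals at background. *Mcm3* exceeded that median on 3 of 9 MONW-Lep and 1 of 8 NW arrays, *Kif20a* on 6 of 9 and 7 of 8, and *Cdc6* and *Plk1* on all. The comparisons of MONW-Lep and of MONW with NW share the NW arrays, and *Plk1* was lower by 0.13 in MONW-Lep and by 0.17 in MONW rats.

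Between the groups on the high-fat diet, 3 of the 34 differed in the hippocampus, 1 higher and 2 lower in MONW-Lep, where 3.1% of all genes passed (1.38% higher and 1.72% lower). *Ccnb1* ranged from 5.06 to 5.74 (median 5.37) in MONW-Lep and from 5.47 to 5.73 (median 5.63) in MONW rats, with 5 of 9 MONW-Lep arrays below every MONW array (log2 difference -0.21, standard error 0.08; exact permutation p = 0.0331). *Chek1* ranged from 5.38 to 5.72 (median 5.44) in MONW-Lep and from 4.92 to 5.72 (median 5.32) in MONW rats (0.24, standard error 0.10; exact permutation p = 0.0349). Every MONW-Lep array lay above the MONW median, though the call was lost without MONW replicate 1 or 8 (0.19 in both cases). *Tyms* was lower by 0.20 in MONW-Lep, at 7.23 to 7.89 against 7.46 to 7.95 in MONW rats (exact permutation p = 0.0623), and the call was lost without MONW-Lep replicates 1, 3, 5 or 6 or MONW replicates 3, 4 or 5, at -0.19 to -0.16. Without MONW replicate 7 there were 4 calls, *Mki67* (0.21) besides these 3, and *Chek1* was higher by 0.30. *Chek1* exceeded the negative control median on 8 of 9 MONW-Lep and 5 of 8 MONW arrays, and *Ccnb1* on 5 of 9 and 8 of 8. Endothelial markers were called in the same arrays, 3 of 7 higher in MONW-Lep than in MONW rats (*Vwf* 0.30, *Tek* 0.24 and *Cldn5* 0.17) and 2 of 7 higher than in NW rats (*Tek* 0.23 and *Cldn5* 0.15), with mean levels of 7.11 to 7.54 in MONW-Lep, 6.93 to 7.52 in MONW and 7.16 to 7.45 in NW rats. Of 4 platelet markers 2 were higher in MONW-Lep than in MONW rats (*Pf4* 0.40 and *Ppbp* 0.28), with means of 6.07 to 6.53 in MONW-Lep and 5.94 to 6.26 in MONW rats. The part of these cells in the calls was not tested.

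**Figure D3:**
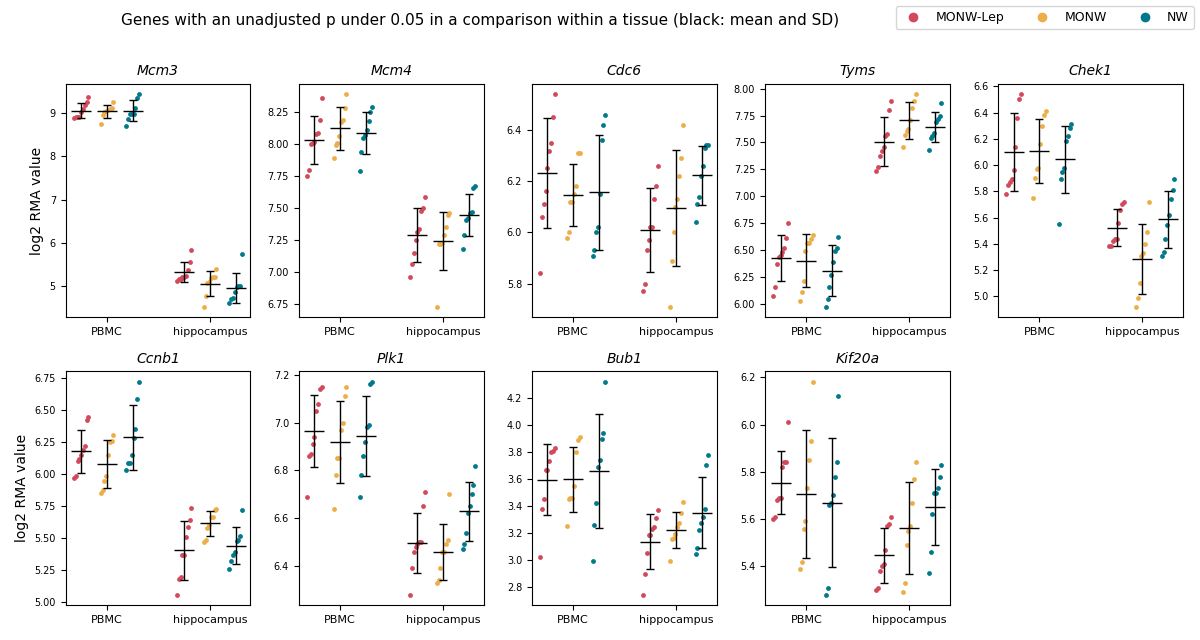
Log2 RMA level (y axis) on each array for the 9 genes with an unadjusted limma p under 0.05 in at least 1 comparison within a tissue, with MONW-Lep, MONW and NW side by side in PBMC and then in the hippocampus. Points are arrays, and the black marks give the mean and the SD. The groups overlap within each tissue, and *Mcm4* in MONW hippocampus has a single low array at 6.73.

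In PBMC the diet and early leptin comparisons gave 1 call among the 34 genes in all. *Ccnb1* was lower in MONW, with 5.85 to 6.31 (median 6.07), than in NW rats, with 6.03 to 6.72 (median 6.22), a log2 difference of -0.21 (standard error 0.10; limma p = 0.0491; exact permutation p = 0.0802). The medians of the negative control sets, 6.23 in MONW and 6.32 in NW PBMC, lay within these ranges. The share called, 1 of 34, is near the 3% of all genes that passed (1.63% higher and 1.38% lower). That call was lost without MONW replicates 2, 3, 4 or 7 or NW replicates 1, 3, 7 or 8, at -0.21 to -0.15. In MONW-Lep against NW, 0 of 34 passed, against 4.75% of all genes (2.36% higher and 2.39% lower), and 0 of 34 had an exact permutation p under 0.05. Leaving out single arrays gave 0 to 3 calls there, the 3 without NW replicate 2. In MONW-Lep against MONW, 0 of 34 passed, against 2.45% of all genes (1.34% higher and 1.11% lower), and 1 had an exact permutation p under 0.05. That gene was *Cdk1*, the kinase that starts mitosis, with 4.46 to 4.85 (median 4.62) in MONW-Lep and 3.71 to 4.81 (median 4.40) in MONW rats (0.26, 95% confidence interval -0.01 to 0.53; exact permutation p = 0.0176). Both ranges lay below the negative control medians, 6.26 in MONW-Lep and 6.23 in MONW PBMC, so this difference is one of signals at background. The 95% confidence intervals of the PBMC comparisons reached from 0.16 to 0.39 to either side of a gene's difference, against 0.13 to 0.33 in the hippocampus. With the mean of the 4 platelet markers as a covariate, added after the values were seen, the counts were 1, 0 and 0 again.

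**Figure D4:**
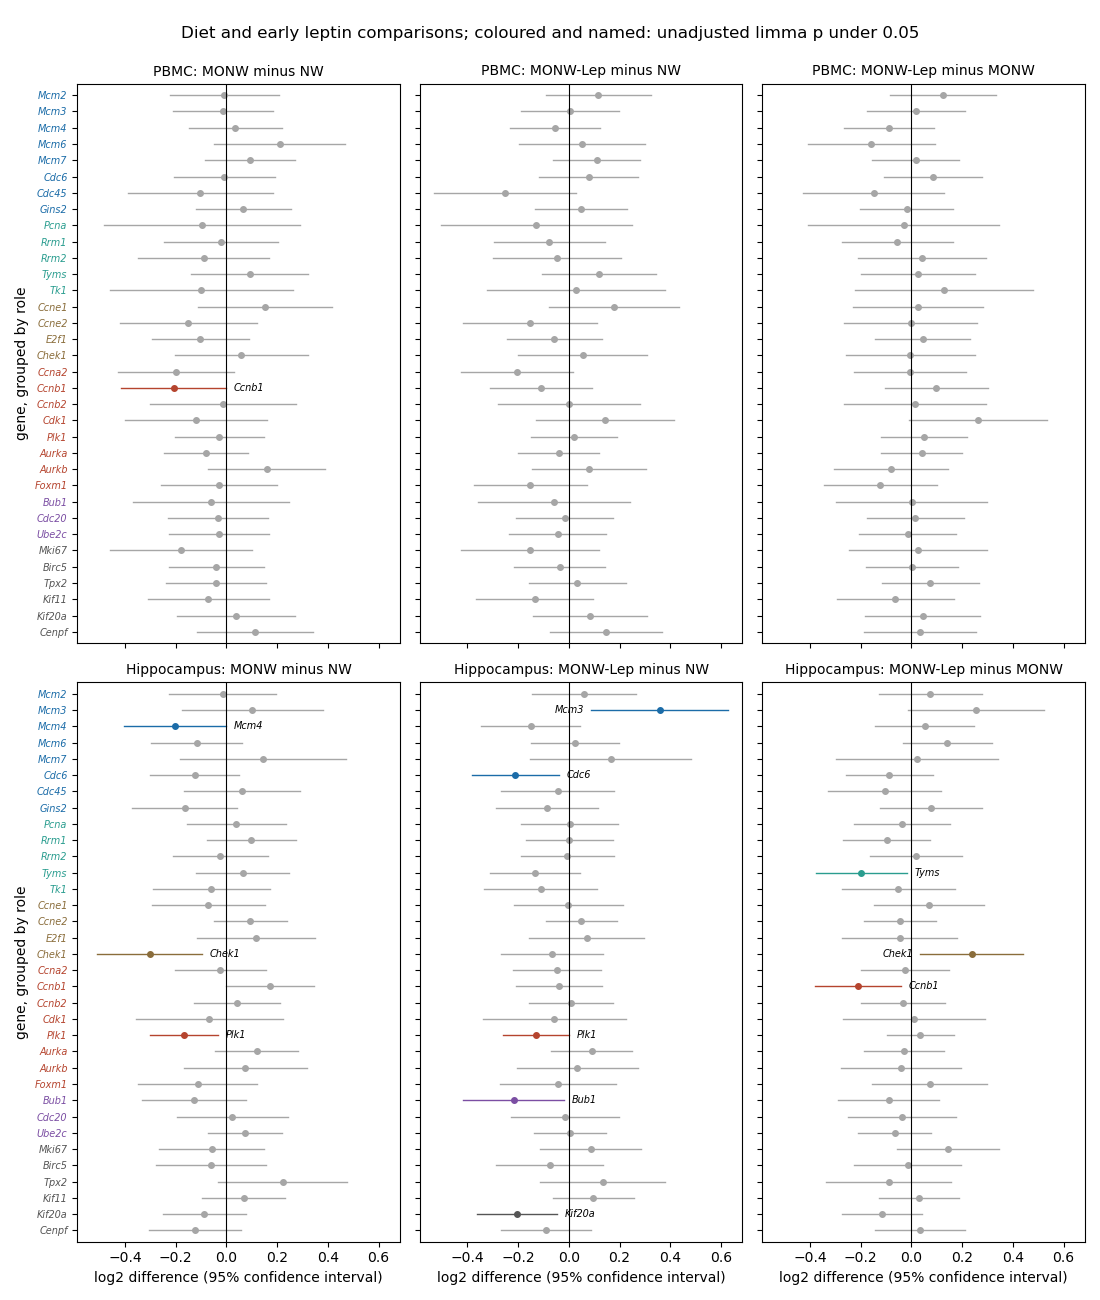
Log2 differences of the 34 genes, with 95% confidence intervals from limma, for MONW minus NW, MONW-Lep minus NW and MONW-Lep minus MONW in PBMC (top) and hippocampus (bottom). Coloured and named genes have an unadjusted p under 0.05: 1, 0 and 0 in PBMC and 3, 5 and 3 in the hippocampus, left to right, and 0 have an adjusted p under 0.05.

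Whether a difference itself differed between the tissues was tested in a fit of all 50 arrays. For MONW minus NW, 3 of the 34 had an unadjusted p under 0.05, against 3.24% of all genes (1.67% higher and 1.57% lower). *Ccnb1* had a MONW minus NW value of -0.21 in PBMC and 0.17 in the hippocampus, a difference of -0.38 (standard error 0.13). It was 0.36 for *Chek1* and 0.33 for *Mcm6*. For MONW-Lep minus NW, 3 of 34 passed, against 3.29% of all genes (1.83% higher and 1.46% lower): *Cdc6* (0.29), *Kif20a* (0.29) and *Mcm3* (-0.35). For MONW-Lep minus MONW 1 of 34 passed, *Ccnb1* (0.31), against 2.49% of all genes (1.39% higher and 1.1% lower). No adjusted p was under 0.05 (0 of 34 for each). Both *Ccnb1* calls held without any single array, though they share the MONW arrays of both tissues. Leaving out 1 array ended the call of *Mcm6* in 16 of 32 cases, *Chek1* in 11 of 32, *Mcm3* in 12 of 34, *Cdc6* in 3 of 34 and *Kif20a* in 14 of 34.

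The further cell cycle genes gave few calls within a tissue as well, and the share of all genes called is repeated beside each count. In the hippocampus of MONW against NW rats 2 of 84 passed (3.08% of all genes), *Nuf2*, of the kinetochore complex that binds microtubules (0.30), and *Cdca5*, which encodes sororin (-0.27). In MONW-Lep against NW 1 of 84 passed (2.34% of all genes), *Nuf2* (0.28), and in MONW-Lep against MONW 5 did (3.1% of all genes): *Cenpn* (-0.25), *Spc25* (-0.45), *Cdca5* (0.26), *Cdk6* (0.20) and *Rfc5* (0.17). Both *Cdca5* calls share the MONW arrays, and both *Nuf2* calls share the NW arrays. In PBMC *Cdkn2b*, an inhibitor of the G1 kinases, was higher in MONW-Lep (0.22) and in MONW (0.28) than in NW rats, comparisons that share the NW arrays. It was the 1 gene of 84 called in MONW (3% of all genes). MONW-Lep PBMC were lower than NW in *Smc2* (-0.34), *Orc3* (-0.24) and *Orc6* (-0.26), making 4 of 84 called (4.75% of all genes), and differed from MONW in 3 of 84 (2.45% of all genes), *Myc* (0.34), *Spc25* (-0.35) and *Pole* (-0.18). No adjusted p was under 0.05 among these 84 genes in the 6 comparisons. Of the markers of dividing cell types in the hippocampus, 0 of 8 newborn neuron genes passed in the 3 comparisons, and of 6 neural stem cell genes *Nes*, which encodes nestin, was lower in MONW than in NW rats (-0.23). Of 8 oligodendrocyte precursor genes, *Olig2* alone passed, with 0.26 for MONW minus NW and -0.23 for MONW-Lep minus MONW, comparisons that share the MONW arrays. The part of these cells in the differences above was not tested.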

How the data were processed

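RNA of PBMC and hippocampus was hybridised to Rat Clariom S arrays, 25 for each tissue, with 100 ng of RNA of integrity number 7 to 10 per sample. The deposited values are log2 levels per transcript cluster, which the authors made with RMA, and the submitters' notes name limma and R 4.0.4. No source used here says whether the tissues were normalised together. Arrays give no read depth, and their number limits the precision. Clusters with 1 gene symbol (15049) were tested. Clusters without one (8139) and control sets (1683) were left out, except for the background. Groups were compared within each tissue with limma 3.58.1 in R 4.3.3, at an unadjusted p under 0.05 as in the study's methods, with Benjamini-Hochberg adjusted p values beside it, and tissues and differences between tissues in a fit of all 50 arrays. Tissue calls used an adjusted p under 0.05. Exact permutation tests over arrays were two-sided. The scripts were tested on simulated data. Figures used matplotlib 3.10.9.

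The members, lists and tests were chosen with earlier results of these data known. Every measured member was named, and of each other list at most the 4 genes with the smallest p among those called, and lower genes of the tissue comparison were added after their values were seen. Labels number the replicates but do not tie a number to a shared litter or batch, and p-values measure the spread between these samples. Alternatives were the prior, scaling, filter, weights, block, threshold and each array left out.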

Additional observations from a re-analysis of the deposited data

Results flagged for a closer look

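Of 204 groups of arrays (34 genes in 6 groups), 13 (6.37%) held an array far from the others of its group, 5 in PBMC and 8 in the hippocampus, where chance gives about 1 in 20. In MONW-Lep PBMC, *Ccne2* was 5.43 in replicate 2 against 6.04 to 6.63 on the other arrays, *Cdc20* 6.15 in replicate 7 against 5.73 to 5.91, and *Tpx2* 6.80 in replicate 8 against 6.18 to 6.45. In MONW PBMC *Ccna2* was 5.28 in replicate 1 against 4.52 to 4.87, and in NW PBMC *Pcna* was 9.38 in replicate 2 against 9.90 to 10.35. In MONW-Lep hippocampus, replicate 1 was low in *Pcna*, 7.69 against 8.06 to 8.44, and high in *Kif11*, 4.50 against 3.95 to 4.20, and *Rrm2* was 5.92 in replicate 10 against 5.15 to 5.54. In MONW hippocampus *Mcm4* was 6.73 in replicate 7 against 7.22 to 7.46, and *Aurkb* 6.89 in replicate 3 against 5.94 to 6.39. In NW hippocampus *Mcm3* was 5.75 in replicate 5 against 4.61 to 5.01, *Mki67* 5.78 in replicate 7 against 4.99 to 5.32, and *Kif11* 4.44 in replicate 3 against 3.82 to 4.09.

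A difference between groups that itself differed between the tissues (PBMC minus hippocampus, unadjusted p under 0.05 in limma) was found 7 times. For MONW minus NW these were *Ccnb1* (-0.38), *Chek1* (0.36) and *Mcm6* (0.33). For MONW-Lep minus NW they were *Mcm3* (-0.35), *Cdc6* (0.29) and *Kif20a* (0.29), and for MONW-Lep minus MONW it was *Ccnb1* (0.31). None had an adjusted p under 0.05 (0 of 34 for each contrast).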

How the results depend on the processing

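With each array left out in turn, 27 to 30 genes were called between the tissues in NW rats (30 with all arrays). In the hippocampus it gave 2 to 5 calls for MONW minus NW (3 with all arrays; 5 without MONW replicate 8), 3 to 6 for MONW-Lep minus NW (5; 3 without MONW-Lep replicate 1 or NW replicate 6) and 2 to 4 for MONW-Lep minus MONW (3). In PBMC it gave 0 to 2 for MONW minus NW (1), 0 to 3 for MONW-Lep minus NW (0) and 0 to 1 for MONW-Lep minus MONW (0), and for the differences between tissues 1 to 5 for MONW minus NW (3; 5 without NW hippocampus replicate 8), 0 to 5 for MONW-Lep minus NW (3; 0 without MONW-Lep PBMC replicate 5 and 5 without NW PBMC replicate 2) and 1 to 2 for MONW-Lep minus MONW (1). With clusters required to exceed the 95th percentile of the negative controls on 8 arrays, 4 members were called between the tissues and 0 in the hippocampus comparisons, in PBMC MONW minus NW and in the differences between tissues for MONW minus NW and MONW-Lep minus MONW (1 for MONW-Lep minus NW), since few members were left to test. At an adjusted p under 0.05 the 6 comparisons within tissues and the 3 differences between tissues had 0 calls, and with a log2 difference of at least 1 the tissue comparison had 8. For PBMC MONW minus NW a trended and robust prior and renewed quantile normalisation gave 0. PBMC MONW-Lep minus NW had 1 call with array weights. Renewed quantile normalisation left 1 difference between tissues for MONW minus NW, and array weights gave 2 for MONW-Lep minus MONW and 5 for MONW-Lep minus NW. The alternatives of that last difference were added after the data were seen. The cause of these shifts was not tested.

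Same-numbered arrays of different groups had correlated deviations (r over 0.1) in 24 of 48 pairs (r from -0.43 to 0.45), with 6 of 8 pairs for MONW-Lep and NW hippocampus and for MONW-Lep and MONW PBMC. Pairs of unlike number were not examined, so these counts cannot show whether the number matters. Not every same-numbered pair had such an r, and the labels tie the number to no shared source, so the unblocked fit was kept. With that number as a replicate block, the hippocampus counts were 2, 4 and 3, and the PBMC counts 1, 2 and 0 for MONW minus NW, MONW-Lep minus NW and MONW-Lep minus MONW, with 0 PBMC genes shared with the unblocked calls. With group and replicate number as a random block across tissues, which the labels do not say mark 1 animal (2 of 25 pairs over 0.1), the tissue count was 30. Centring each array on its median gave a median tissue difference of 0.32 for all genes (0.08 as deposited) and 0.74 for the 34 genes (0.50 as deposited), with *Ccne2* no longer called (-0.22), and renewed quantile normalisation ended the tissue calls of *Cdk1* (0.29) and *Bub1* (0.17). Of 1261 values of single called genes under the alternatives, 1074 kept their side of the threshold, 187 lost it and 0 changed sign. Among the alternatives, counting every cluster of a gene repeated the main fit, since each gene had 1 cluster. These totals also pool the tissue differences with the diet and leptin calls, so they do not measure how firm the latter are.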
